A study of Bos taurus with 6 samples.

Results

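The cytosolic ribosomal proteins were read in blood through 83 genes, chosen by name: every probe, controls apart, whose gene name was RPL, RPS or RPLP with a number, or RPSA, without the RPS6K kinases and hyphenated names. These names covered 307 of the 43653 probes on the array, and each gene was represented by its brightest probe over the 6 arrays. Of the 83 genes, 49 had large-subunit names and 34 small-subunit names. The name rule also took in RPS19BP1, a nucleolar binding partner of RPS19 that is not itself a subunit of the ribosome. The symbols RPL21, RPL22 and RPL41 were not among the names matched.

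The cytosolic ribosome makes the cell's nuclear-encoded proteins and is built from a large and a small subunit, each a scaffold of ribosomal RNA that holds many proteins. The mRNAs of these proteins are among the most abundant in most cells and usually begin with a run of pyrimidines, through which the mTORC1 kinase controls their translation as a group. Since the subunits are assembled in fixed proportions, the genes are known for varying together. In blood the mature red cell of mammals has lost its ribosomes, so leukocytes, platelets and immature red cells carry these mRNAs.

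Whole blood was drawn from the jugular vein, and 3 female cattle carrying the fat-1 transgene were set against 3 female wild type cattle. The fat-1 gene comes from the nematode Caenorhabditis elegans and encodes a desaturase that converts omega-6 to omega-3 fatty acids, a reaction mammals lack. The labels give an age of 3.5 years for fat-1 replicate 1 and of 3 years for each of the other 5. The labels give no breed, no promoter for the transgene and no statement on whether the transgenic animals share a founder line, and the array has no probe named for the transgene, so its expression was not checked. Each animal had 1 array of the 1-colour Agilent bovine design. The 3 fat-1 arrays shared one slide and the 3 wild type arrays another. An effect of the slide and one of the transgene cannot be told apart. The 75th percentile of intensity ranged from 714 to 1065 on the fat-1 arrays and from 611 to 886 on the wild type arrays, and 58.4% to 63.4% of probes were well above background. Levels below are log2 intensity relative to the array's own 75th percentile, unless the authors' deposited value table is named, and differences are fat-1 minus wild type with the standard error (SE) of the limma fit. P-values were adjusted with the Benjamini-Hochberg method over all 26822 probes that were well above background on at least 3 arrays, and an adjusted p of 0.05 was the threshold.

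Probes of 5 members carry what follows, and their sequences are given as they stand on the array, 5′ to 3′, with positions on the build Btau_3.1. RPL7 had the highest difference of any member. The probe that represents it lies on chr5:81062707-81062766 and a second on chr5:81062981-81063040, both on the minus strand.
RPL7 probe 1: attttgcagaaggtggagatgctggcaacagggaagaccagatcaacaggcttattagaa
RPL7 probe 2: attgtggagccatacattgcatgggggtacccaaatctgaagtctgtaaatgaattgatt

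RPL3 had 7 probes, 1 of them on the opposite strand, and the 2 nearest its 5′ end had the lowest differences. They lie on the minus strand at chr5:117905351-117905409 and chr5:117902656-117902715.
RPL3 probe 1: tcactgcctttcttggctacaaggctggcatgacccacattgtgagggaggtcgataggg
RPL3 probe 2: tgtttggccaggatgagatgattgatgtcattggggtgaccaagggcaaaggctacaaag

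RPS4X and RPS4Y1 show how nearly alike 2 members can be at probes other than those that represent them. The RPS4X probe at chrX:47882718-47882777 and the RPS4Y1 probe at chr23:10765601-10765660, both on the plus strand, share the 40 bases in capitals and are identical in 49 of the 51 bases where they overlap. The mismatches are A8C and T11C, counted from 1 at the 5′ end of the RPS4X probe and written with the RPS4X base first.
RPS4X: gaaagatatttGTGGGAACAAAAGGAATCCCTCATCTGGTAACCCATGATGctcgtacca
RPS4Y1: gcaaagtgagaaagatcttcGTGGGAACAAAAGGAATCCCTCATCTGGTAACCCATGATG

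The differences at these probes were -0.16 ± 0.20 for RPS4X and -0.19 ± 0.22 for RPS4Y1. Either probe may capture the transcript of the other gene.

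RPL10 was read on both strands. The probe at chrX:23718039-23718098 lies on the plus strand, as does the one that represents the gene, and the probe at chrX:23718027-23718087 lies on the minus strand, with the 49 bases in capitals being the reverse complement of those in the first.
RPL10 probe: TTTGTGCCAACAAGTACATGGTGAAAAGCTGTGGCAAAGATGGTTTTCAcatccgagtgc
RPL10 opposite strand: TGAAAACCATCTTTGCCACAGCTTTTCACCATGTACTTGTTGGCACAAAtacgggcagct

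Nearly all members were detected, and none differed between the groups past the threshold. Of the 83 genes, 81 were well above background on all 6 arrays, and no member spot was saturated. The exceptions were RPL3L, the paralogue of RPL3 found in heart and skeletal muscle, and RPL10L, the testis paralogue of RPL10, which were not well above background on any array. Among the 81 genes tested, 0 passed the adjusted threshold of limma's test, as against 0.172% of all probes, with adjusted p-values from 0.381 to 0.938. At an unadjusted p under 0.05, 2 members were lower in fat-1 blood (2.47% of the members, against 6.68% of all probes) and 0 were higher (against 6.15%). Without wild type replicate 3 the unadjusted count was 9, all lower (11.1% of the members, against 10.4% of all probes lower in the same fit), and without any one of the other 5 animals it was 0. The authors' deposited values gave 0 members in either direction by limma, adjusted or unadjusted, against 0.0597% of all probes at the adjusted threshold and 7.69% lower and 6.1% higher at an unadjusted p under 0.05.

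The differences of single members were small and lay mostly on one side of 0 with 75th percentile scaling. The median over the 81 genes was -0.27, and 78 of them lay below 0 (96.3%, against 55.4% of all probes). The median over all probes was -0.06. By the authors' value table the median over the members was -0.03, with 49 of 81 below 0 (60.5%, against 51.8% of all probes) and a median of -0.02 over all probes. The SE of a single member was 0.24 at the median, which gives a 95% interval of 0.54 to either side, and in the authors' table the SE was 0.15 and the half-width 0.36.

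**Figure D1:**
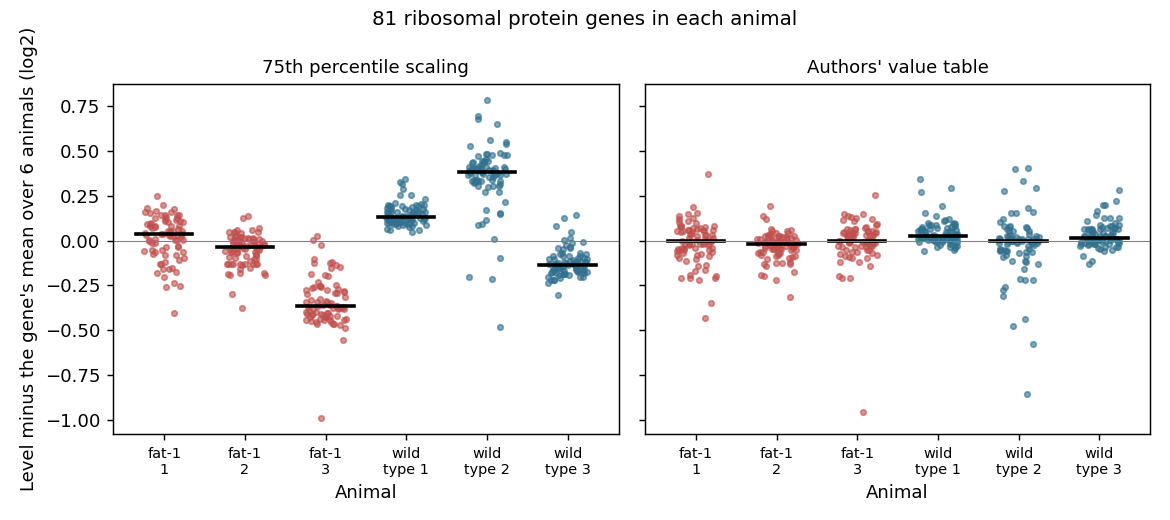
Level of each of 81 ribosomal protein genes in each of 6 animals, as log2 difference from that gene's mean over the animals, with 75th percentile scaling (left) and in the authors' value table (right). Each point is 1 gene and the black bar is the median. On the left the points of an animal shift together, from a median of -0.37 in fat-1 replicate 3 to 0.39 in wild type replicate 2, and on the right all 6 medians lie between -0.02 and 0.03.

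Within an animal the members shifted together. With 75th percentile scaling the median of the members, each relative to its own mean over the animals, was 0.04, -0.03 and -0.37 in fat-1 replicates 1 to 3 and 0.13, 0.39 and -0.13 in wild type replicates 1 to 3. The groups overlapped, since fat-1 replicates 1 and 2 lay above wild type replicate 3. Fat-1 replicate 3 held the lowest level of 74 of the 81 genes and wild type replicate 2 the highest of 72. The group means of this median were -0.12 ± 0.21 (SD, n = 3) in fat-1 and 0.13 ± 0.26 in wild type blood, so that the difference of -0.25 was about as large as the spread between animals of one group. Without fat-1 replicate 3 the median difference of the members was -0.14, without wild type replicate 2 it was also -0.14, and without wild type replicate 3 it was -0.39.

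The animals whose members stood apart were also those with the extreme 75th percentiles, by which levels are divided. The median intensity of the members, before any scaling, was 223967, 218275 and 243663 for the fat-1 animals in order and 248676, 239000 and 241204 for the wild type animals. The 75th percentile of all probes was 714, 745 and 1065 for the fat-1 animals and 742, 611 and 886 for the wild type animals. It was highest in fat-1 replicate 3, where the scaled members were lowest, and lowest in wild type replicate 2, where they were highest. With no scaling between arrays, an alternative chosen after the data were seen, the median difference of the members was -0.10, with 68 of 81 below 0, and that of all probes was 0.11. The authors' columns share one distribution, and there the medians of the animals lay between -0.02 and 0.03. The part of the scaling in the difference of any one member was not tested beyond these alternatives.

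The members were among the brightest probes, and bright probes of other genes also lay mostly below 0. The probes kept were divided by mean level into 10 bins of equal size, and 78 of the 81 members lay in the brightest. There the median difference of the 2441 probes of other genes was -0.19 with 75th percentile scaling, and 80.5% of them lay below 0. For the members as a whole the values were -0.27 and 96.3%. This bin spans levels from 3.53 to 9.22, and the median level of the members was 8.25. The other genes were not matched to the members in level within the bin, so the comparison cannot tell whether the members differed from equally bright probes. In the dimmest bin the median over all probes was 0.06, and from bin 5 to bin 10 it was lower in each next bin. With the authors' values the medians of the bins lay between -0.03 and 0.00, and the other genes of the brightest bin had a median of -0.02, with 53.1% below 0. The 3 members outside the brightest bin were RPL26L1 and RPS27L in bin 9 and RPL34 in bin 3.

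**Figure D2:**
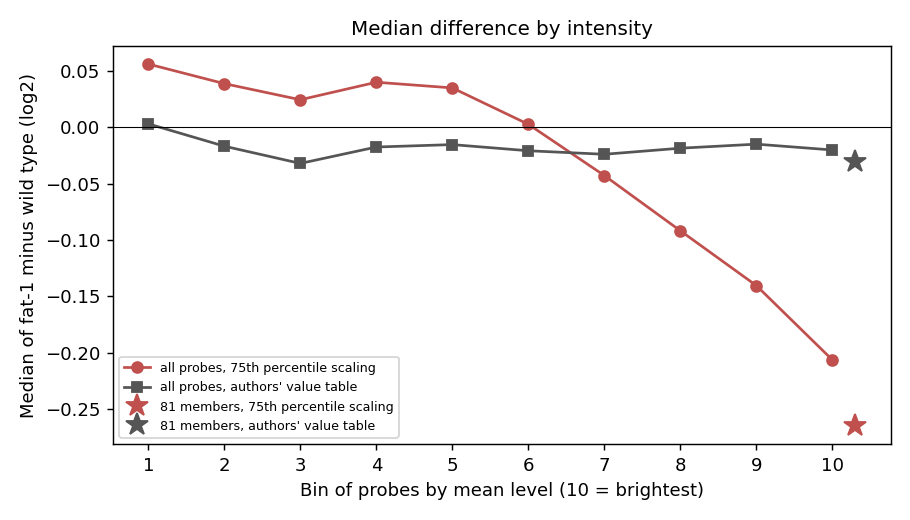
Median of the fat-1 minus wild type difference (log2) in each of 10 bins of the probes by mean level, from 1 (dimmest) to 10 (brightest), with 75th percentile scaling and in the authors' value table; stars give the median of the 81 members. With 75th percentile scaling the medians run from 0.06 to -0.21 across the bins and the members stand at -0.27, while with the authors' values the bins lie between -0.03 and 0.00 and the members at -0.03.

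Among large-subunit proteins the median difference was -0.27 over 47 genes, of which 44 lay below 0, and in the authors' table it was -0.04, with 28 below 0. RPL15, a large-subunit protein, had levels of 8.15, 8.10 and 7.79 in fat-1 and 8.53, 8.84 and 8.26 in wild type blood. The groups did not overlap. The difference was -0.53 ± 0.23 (unadjusted p = 0.0498, adjusted p = 0.388 in limma), at chr27:46215674-46215733. All 8 probes of RPL15 lay below 0, between -0.58 and -0.23. RPL15 was the clearest in the authors' table, where its log2 values were 17.75, 17.72 and 17.75 in fat-1 and 18.03, 18.07 and 18.03 in wild type animals, with no overlap and a difference of -0.31 ± 0.15, and here too it did not pass (adjusted p = 0.388).

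RPL3, which lies near the peptidyl transferase centre, had levels of 7.51, 7.55 and 7.43 in fat-1 and 7.90, 8.19 and 7.66 in wild type blood, without overlap. Its difference was -0.42 ± 0.22 (adjusted p = 0.422 in limma). RPL28 had 6.16, 6.01 and 6.29 against 6.45, 7.18 and 6.25, and here wild type replicate 3 lay within the fat-1 range. Its difference was -0.47 ± 0.28 (adjusted p = 0.451 in limma), and -0.20 without wild type replicate 2. The only other RPL28 probe, which lies on the opposite strand, differed by 0.39. RPL22L1, the paralogue of RPL22, had the most scattered levels of the members, 4.57, 4.27 and 3.33 against 4.64, 4.97 and 4.15, with overlapping groups and a difference of -0.53 ± 0.36 (adjusted p = 0.496 in limma). Without fat-1 replicate 3 it was -0.17.

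**Figure D3:**
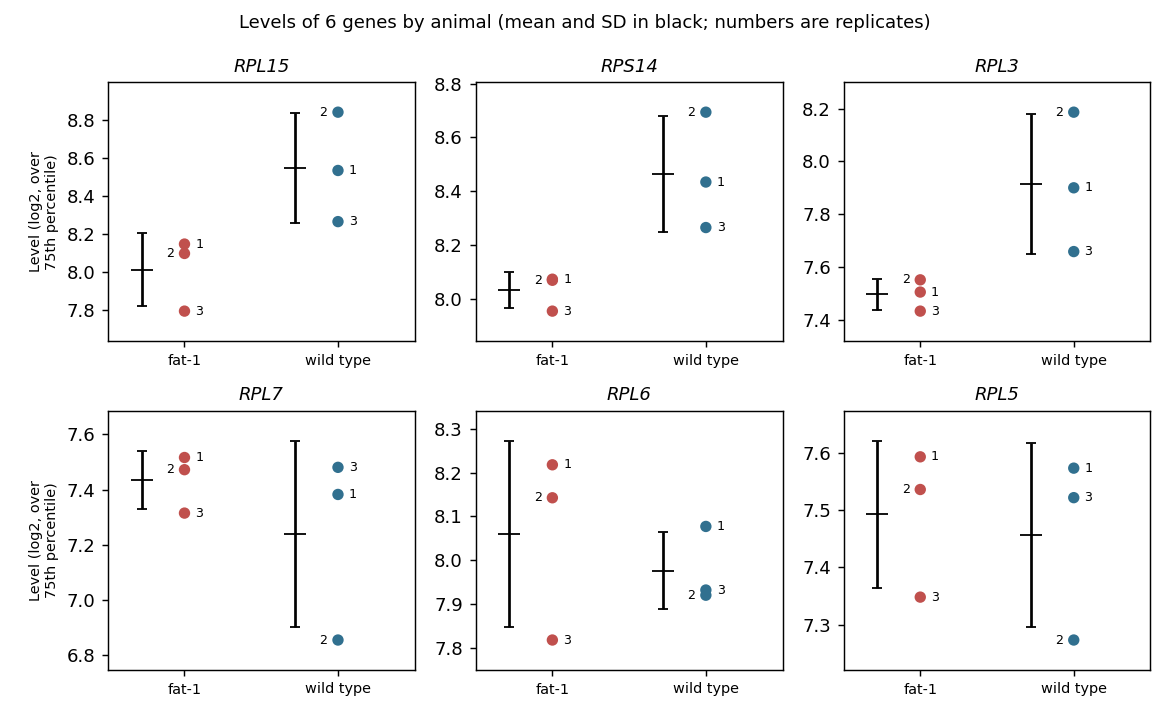
Level (log2 over the array's 75th percentile) of 6 ribosomal protein genes in each animal, fat-1 at left and wild type at right of each panel, with the replicate number beside the point and the mean and SD of 3 animals in black. Upper row: RPL15, RPS14 and RPL3, whose groups do not overlap. Lower row: RPL7, RPL6 and RPL5, whose groups overlap and whose wild type replicate 2 is the lowest of its group.

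Only RPL7, RPL6 and RPL5 lay above 0 with 75th percentile scaling, and the sign of RPL5 turned with median scaling. RPL7, a large-subunit protein that binds ribosomal RNA, had levels of 7.52, 7.47 and 7.31 in fat-1 and 7.38, 6.85 and 7.48 in wild type blood. Wild type replicate 2 was the lowest animal, whereas for 72 other members it was the highest. The difference of RPL7 was 0.20 ± 0.24 (adjusted p = 0.681 in limma), and it was 0.42 ± 0.30 in the authors' table. All 7 probes of RPL7 lay above 0, between 0.05 and 0.48, and of the 52 members with 3 or more probes kept it was the only one of which this was so. At each of these probes wild type replicate 2 had the lowest level of the 6 animals, and without that animal the difference at the probe used was 0.00.

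RPL6, also of the large subunit, had levels of 8.22, 8.14 and 7.82 in fat-1 and 8.08, 7.92 and 7.93 in wild type blood, with a difference of 0.08 ± 0.21 (adjusted p = 0.853 in limma). The 8 probes of RPL6 were mixed, 4 above 0 and 4 below, between -0.37 and 0.14. With the authors' values the fat-1 animals, at 17.78, 17.76 and 17.78 for RPL6, lay above the wild type animals at 17.59, 17.15 and 17.71. RPL5, which with RPL11 and its own ribosomal RNA forms the particle that can bind MDM2, had levels of 7.59, 7.54 and 7.35 against 7.57, 7.27 and 7.52. Its groups overlapped. The difference of RPL5 was 0.04 ± 0.21 (adjusted p = 0.938 in limma), 0.26 ± 0.23 in the authors' table and -0.0066 with median scaling. Its 5 probes were also mixed, 3 above 0 and 2 below, between -0.05 and 0.06. When each array was centred on the median of the members, RPL7, RPL6 and RPL5 stood at 0.45, 0.34 and 0.29, the 3 highest values. None passed, with 0.534 as the smallest adjusted p.

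RPL11, the partner of RPL5 in that particle, differed by -0.18 ± 0.25 with overlapping groups. RPL13A, known for a role in translational control by interferon, had levels of 8.35, 8.36 and 7.77 in fat-1 against 8.52, 8.69 and 8.22 in wild type blood. It differed by -0.31 ± 0.25. RPL10, which helps join the subunits and is encoded on the X chromosome, differed by -0.21 ± 0.25, and RPL10A and RPL7A, large-subunit proteins whose names resemble RPL10 and RPL7 without being their paralogues, by -0.31 ± 0.23 and -0.28 ± 0.24. Each of these 5 overlapped between the groups with 75th percentile scaling. RPL10A and RPL7A did not overlap in the authors' table, at -0.10 and -0.06, values smaller than their SE of 0.15.

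The stalk of the large subunit, which recruits elongation factors, consists of RPLP0 and pairs of RPLP1 and RPLP2. RPLP0 had levels of 8.73, 8.64 and 8.23 in fat-1 and 8.78, 9.11 and 8.53 in wild type blood and differed by -0.27 ± 0.25. RPLP1 differed by -0.18 ± 0.26 and RPLP2 by -0.30 ± 0.23, and all 3 overlapped between the groups. The authors' values for the stalk proteins, in the same order, were -0.05, 0.04 and -0.05, and those of RPLP0 did not overlap.

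The small-subunit names gave the same picture, with a median of -0.25 over 34 genes, RPS19BP1 included, all below 0. In the authors' table their median was -0.02, with 21 below 0. RPS14, which lies on the platform of the small subunit, had levels of 8.07, 8.07 and 7.96 in fat-1 and 8.43, 8.69 and 8.27 in wild type blood. The groups did not overlap, and the difference was -0.43 ± 0.21 (adjusted p = 0.412 in limma). RPS2, which lines the path of the mRNA's entry, had 8.42, 8.39 and 8.28 against 8.69, 9.12 and 8.53, again without overlap, and differed by -0.42 ± 0.23 (adjusted p = 0.431 in limma). RPS14 and RPS2 both stood at -0.20 in the authors' table, and both overlapped.

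The other small-subunit proteins named for their roles differed less. RPSA, also known as the laminin receptor, had levels of 8.33, 8.23 and 7.87 in fat-1 and 8.38, 8.62 and 8.09 in wild type blood, with a difference of -0.22 ± 0.24. RPS3, which also acts in DNA repair, differed by -0.23 ± 0.25, RPS19, the gene most often mutated in Diamond-Blackfan anaemia, by -0.21 ± 0.25, and RPS27A, made as a fusion with ubiquitin, by -0.30 ± 0.23. RPS6, the substrate of the S6 kinases downstream of mTORC1, had levels of 8.25, 8.11 and 7.72 against 8.25, 8.30 and 7.90 and a difference of -0.13 ± 0.23. These groups overlapped in each case. With the authors' values the 5 differences lay between -0.07 for RPS27A and 0.07 for RPS6.

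**Figure D4:**
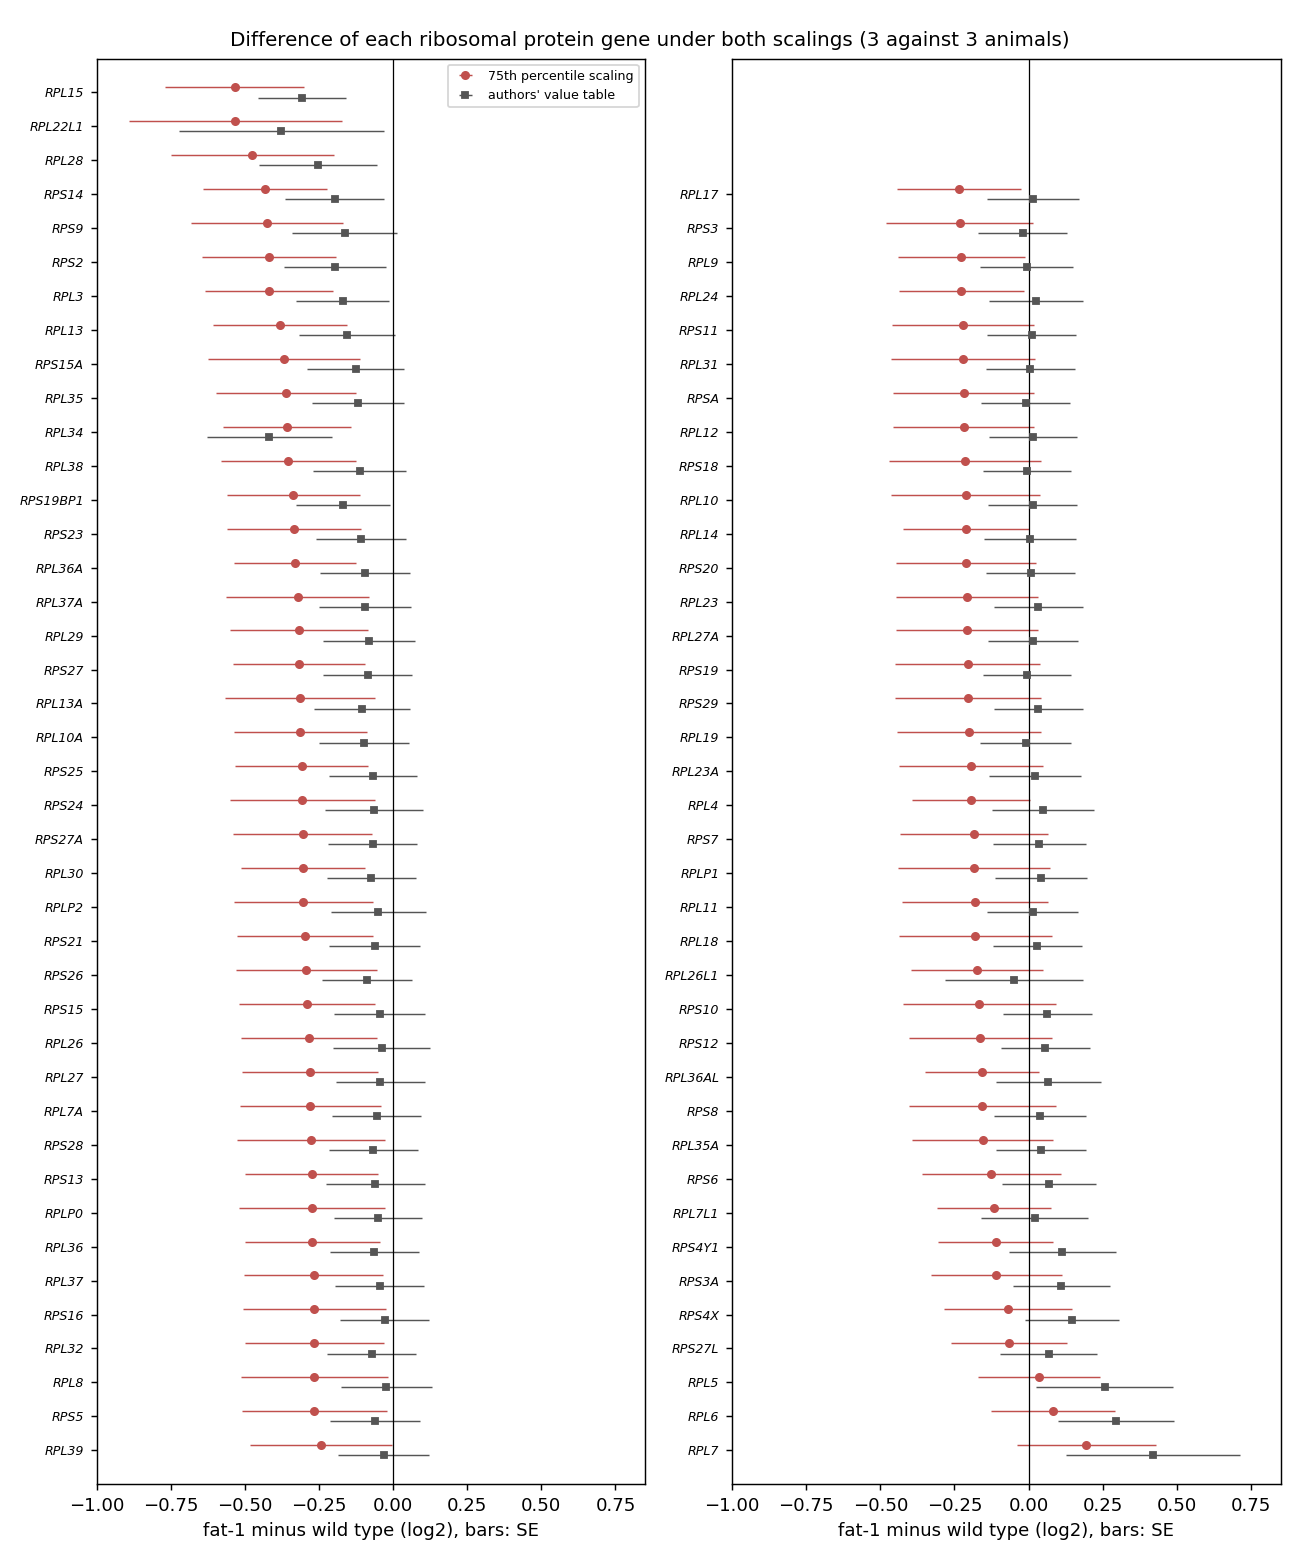
Difference between fat-1 and wild type blood (log2, points, with SE as bars, 3 against 3 animals) of 79 of the 81 genes tested, ordered by the value with 75th percentile scaling (red) and with the authors' value table in grey. In red, 76 of those drawn lie left of 0, from -0.53 for RPL15 to 0.20 for RPL7; in grey, 48 do.

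Of the 81 genes, 11 had all fat-1 animals below all wild type animals with 75th percentile scaling (13.6%, against 12.7% of all probes) and 0 had them above (against 6.92%). By the authors' values, 12 were lower without overlap (14.8%, against 12.8% of all probes) and 3 were higher (3.70%, against 7.81%), RPL6 and RPS4X among them. The share of members lower without overlap lay near that of all probes under both scalings. RPL15, RPL3 and RPS19BP1 were lower without overlap under both.

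The detected paralogues of canonical members, RPL22L1 included, were 6. Their median was -0.14, with all 6 below 0, and 0.04 in the authors' table. RPL7L1, the nucleolar relative of RPL7, had levels of 3.75, 3.76 and 3.66 in fat-1 and 3.94, 3.79 and 3.79 in wild type blood and differed by -0.12 ± 0.19 without overlap, against 0.20 for RPL7. RPL36AL differed by -0.16 ± 0.19 and RPL36A, its relative on the X chromosome, by -0.33 ± 0.21. RPS27L, the relative of RPS27, had levels of 3.53, 3.37 and 3.50 against 3.58, 3.59 and 3.43 and differed by -0.07 ± 0.19, with -0.32 ± 0.22 for RPS27. Over all their probes, however, RPS27L ran from -0.78 to -0.07 and RPS27 from -0.32 to 0.46. RPL26L1 differed by -0.17 ± 0.22 and RPL26 by -0.28 ± 0.23. RPL39, whose testis-enriched paralogue RPL39L was not among the names matched, differed by -0.24 ± 0.24. The difference between the 2 genes of a pair was not tested.

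RPS4X, on the X chromosome, had levels of 8.01, 7.89 and 7.60 in fat-1 and 7.95, 8.04 and 7.72 in wild type blood and differed by -0.07 ± 0.22. RPS4Y1, which in humans is Y-linked, is placed on chromosome 23 by the files, was well above background in all 6 of these female animals and differed by -0.11 ± 0.19. Both stood above 0 in the authors' table, at 0.15 ± 0.16 for RPS4X and 0.11 ± 0.18 for RPS4Y1. These values come from probes other than the near-identical pair printed above.

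RPL34 was named after its values were seen, because its single probe, made from an expressed sequence tag, was the dimmest of the members tested. It had levels of -2.82, -2.69 and -2.71 in fat-1 and -2.24, -2.23 and -2.68 in wild type blood and differed by -0.36 ± 0.22, with -0.42 ± 0.21 in the authors' table. RPS19BP1, also named after its values were seen, differed by -0.34 ± 0.22.

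Most members were read by several probes, which allowed each value to be set against others from the same gene. Of the 307 probes 283 were kept, 263 of them with a difference below 0, and their median was -0.27 (-0.06 in the authors' table, with 199 below 0). At an unadjusted p under 0.05, 17 probes were lower (6.01%, against 6.68% of all probes) and 1 was higher (0.353%, against 6.15%), and 0 passed the adjusted threshold in limma. In 66 of the 74 members with at least 2 probes kept all probes lay below 0, in 1 all lay above and in 7 they were mixed. Within 10 members the probes spanned more than 0.5.

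The probes of one transcript did not give one value, and those nearer the 5′ end were mostly the lower. For 47 members the probe nearest the 5′ end could be compared with the one nearest the 3′ end of the same accession, 205 to 6629 bases apart on the genome (median 1230), introns included. The difference was lower at the 5′ probe in 38 of the 47 genes (80.9%), by 0.10 at the median, and in 38 with a median of -0.11 in the authors' table. Among 4129 accessions of other genes, whose probes lay farther apart (median 2558 bases), it was lower at the 5′ probe in 57.1%, with a median of -0.04, and in 66.6% with a median of -0.11 in the authors' table. The 5′ minus 3′ level of the members, relative to its mean over animals, had medians of -0.06, -0.14 and 0.10 in the fat-1 animals and 0.06, 0.01 and 0.04 in the wild type animals. Fat-1 replicates 1 and 2 thus lay below all wild type animals and fat-1 replicate 3 above them. For the other genes the medians were 0.18, -0.15 and -0.06 in the fat-1 and 0.05, -0.01 and -0.01 in the wild type animals. There fat-1 replicate 1 was the highest animal, unlike its place for the members. The part of probe position in the differences of the members was not tested.

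In RPL3 the 4 probes nearest the 3′ end differed by -0.57 to -0.42, the RPL3 probe 2 given above by -0.70 ± 0.23 and RPL3 probe 1, nearest the 5′ end, by -0.87 ± 0.28. The level at RPL3 probe 1 was 3.69, 2.83 and 3.61 in fat-1 and 4.203, 4.42 and 4.10 in wild type blood, without overlap. RPLP0 differed by -0.67 at its 5′ probe and by -0.26 at its 3′ probe, and RPL7 by 0.05 and 0.48. RPL37A, named after its values were seen, went the other way. Its 3′-most probe, at chr2:108682216-108682275, differed by -1.76 ± 0.48 (unadjusted p = 0.00566, adjusted p = 0.245 in limma), with levels of 0.83, 0.49 and 0.85 in fat-1 and 1.35, 3.50 and 2.58 in wild type blood. The neighbouring RPL37A probe, at chr2:108682142-108682201, differed by -0.27, and the one used for the gene by -0.32.

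**Figure D5:**
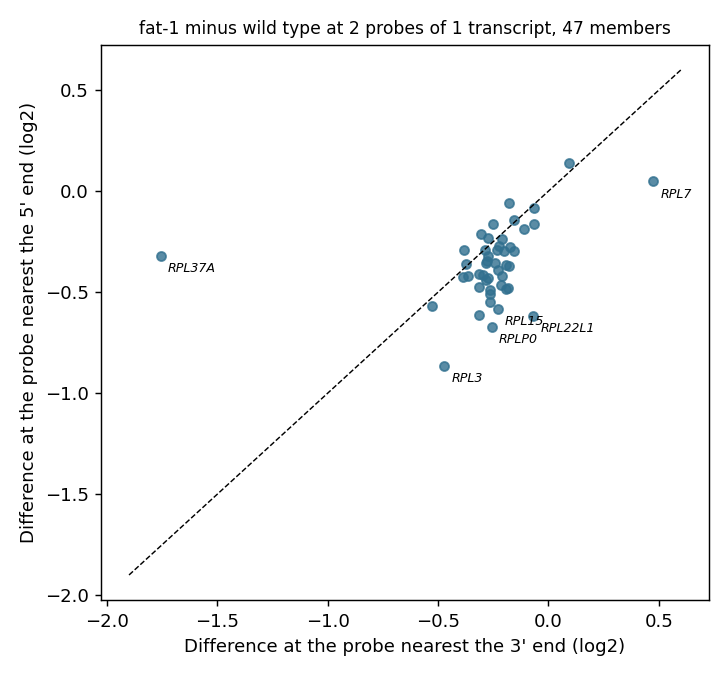
Fat-1 minus wild type difference (log2) at the probe nearest the 5′ end against that at the probe nearest the 3′ end, for 47 members read by 2 or more probes of 1 accession; each point is 1 gene and on the dashed line both probes agree. In 38 of the 47 genes the point lies below the line, and RPL37A stands apart with -1.76 at its 3′ probe.

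Probes of different sources were detected to different extents. Of 251 member probes made from RefSeq transcripts, 249 were well above background on all 6 arrays, and the exceptions were 2 on no array. Of 48 made from expressed sequence tags or other cDNA sequences, 22 were well above background on all arrays and 20 on none. Where a probe lay within 50000 bases of the one used for its gene, all 166 RefSeq probes were on the same strand while of those from tags or cDNA 21 were on the same strand and 15, in 14 genes, on the opposite one. Of these 15, 11 were well above background on all 6 arrays. Their differences, over the 12 kept, ran from -0.37 to 0.39 with a median of -0.10, and 0 had an unadjusted p under 0.05 in either direction. At the RPL10 probe on the opposite strand the levels were 0.63, 0.97 and 0.47 in fat-1 and 1.102, 1.08 and 0.59 in wild type blood, with a difference of -0.23 ± 0.24, and at the RPL10 probe whose sequence it reverses the difference was -0.42 ± 0.23. The origin of the signal on the opposite strand was not tested.

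The 1 member probe counted above as higher was 1 of 3 for RPL36A, made from an expressed sequence tag at chrX:30711276-30711335. It was well above background in 3 of 3 fat-1 animals and in 0 of 3 wild type animals. Its levels were -4.05, -3.82 and -5.05 against -6.45, -7.01 and -5.15, a fold of at least 1.37 in processed intensity over the lowest signal well above background. It was kept only through the group where it was high, so its p was conditioned by the filter and supports no difference. The other probes of RPL36A differed by -0.33 and -0.37.

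Probes of other names also shared sequence with members. Of the 83 probes used, 9 held a run of at least 20 bases that also stood on a probe of another name, those of RPL9, RPL12, RPL17, RPL27, RPLP1, RPS10, RPS15A, RPS20 and RPS23. Ribosomal protein genes have many processed copies in mammalian genomes, and a 60-base probe may capture RNA from such copies, which was not assessed. RPS14 gave an example in a second probe, placed on chr17:52531613-52531672, which matched the one used at chr7:61245013-61245565 in 37 of 41 overlapping bases. Counted from the 5′ end of the probe used, the mismatches were G11A, T12G, T20C and C41T. The chromosome 17 probe differed by -0.50 ± 0.21, near the -0.43 ± 0.21 of the one used.

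The genes that work with the ribosome passed the threshold no more than the members. They were taken as lists from textbook knowledge, and 0 genes of any list named here passed the adjusted threshold of limma with either scaling. The counts at an unadjusted p under 0.05 given for these lists stand beside 6.68% of all probes lower and 6.15% higher. Among 37 translation factors and partners with the same kind of pyrimidine-led mRNA, 27 lay below 0, with a median of -0.22 (0.01 in the authors' table), and at an unadjusted p under 0.05 1 was lower and 0 were higher. That one was GNB2L1, the older name of RACK1, a scaffold protein on the small subunit, with levels of 6.64, 6.48 and 6.60 in fat-1 and 7.10, 7.52 and 6.88 in wild type blood. It had a difference of -0.59 ± 0.23 and an adjusted p of 0.367 in limma. The probe that carries the newer name was not well above background on any of the 6 arrays. The subunits of elongation factor 1 EEF1B2, EEF1D and EEF1G, next by p, differed by -0.46, -0.54 and -0.48, and by -0.23, -0.28 and -0.24 in the authors' table. Others of the list stood above 0, among them the initiation factors EIF3E at 0.51 ± 0.30 and EIF2S3 at 0.49 ± 0.30, named after their values were seen.

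Ribosome biogenesis, the making of ribosomal RNA and assembly of the subunits, had 51 genes tested and a median of -0.03, with 26 below 0. At an unadjusted p under 0.05, 1 gene was higher (against 6.15% of all probes) and 0 were lower (against 6.68%). RIOK3, a kinase of small-subunit maturation, was that gene, with 0.72 ± 0.30 (adjusted p = 0.380 in limma). Of 19 genes listed for control of translation of the members' mRNAs, such as mTORC1 and its inhibitors, 9 lay below 0. The median was 0.05, and 1 was lower at that p and 0 higher. The list held PDK1 (0.19), which is the symbol of a pyruvate dehydrogenase kinase and not of the kinase upstream of AKT1. Without PDK1 the middle values are 0.05 for RRAGC and -0.07 for RPS6KA1, on either side of 0. AKT1, an upstream kinase of mTORC1, stood at -0.54 ± 0.23, and TSC1, an inhibitor of it, at 0.59 ± 0.27. RPTOR and RPS6KA3, next by p, stood at 0.41 ± 0.25 and 0.32 ± 0.21, and at 0.56 ± 0.22 and 0.26 ± 0.17 in the authors' table. Of 14 genes listed for ribosome rescue and quality control, 1 was higher at that p, ASCC3, a helicase that splits collided ribosomes (0.77 ± 0.29). The 1 that was lower was NAA10, an acetyltransferase that acts at the ribosome and is not itself a rescue factor (-0.64 ± 0.23).

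The proteins of the mitochondrial ribosome, a separate set of nuclear genes, had a median of -0.26 over 75 genes, with 65 below 0, against -0.27 and 78 of 81 for the cytosolic ones. In the authors' table the medians were -0.14, with 57 of 75 below 0, and -0.03. At an unadjusted p under 0.05, 0 mitochondrial genes were higher (against 6.15% of all probes) and 1 was lower (against 6.68%). That gene was MRPL12, at -0.54 ± 0.21 (adjusted p = 0.367 in limma). The median of the mitochondrial genes relative to their own means was -0.19, -0.16 and 0.02 in the fat-1 and 0.11, 0.28 and -0.00 in the wild type animals, so fat-1 replicate 3, the lowest animal for the cytosolic proteins, was not the lowest for these.

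Markers of blood cells moved with the groups to different degrees. In a bulk sample fewer cells of a type and less RNA per cell cannot be told apart. All 4 markers of gamma-delta T cells, which are abundant in cattle, lay below 0, with a median of -1.47. Each had an unadjusted p under 0.05 in limma, and 6.68% of all probes were lower at that p. The summed level of these 4 markers, in multiples of the 75th percentile, was 6.65 to 26.5 in fat-1 and 32.6 to 60.04 in wild type blood. Of 11 T cell markers 9 lay below 0 (median -0.19, summed level 108 to 156 against 168 to 255), and of 6 B cell markers 4 did (median -0.29, 59.3 to 64.3 against 66.5 to 110). The summed levels of these 3 lists did not overlap between the groups, and those of the other marker lists did. Weighted alike, each relative to its own mean, T cell markers averaged -0.33, 0.14 and -0.14 in fat-1, against -0.17, 0.47 and 0.03. B cell markers averaged 0.09, -0.48 and 0.06 against 0.67, -0.12 and -0.22. Both lists then overlapped, and the gamma-delta list did not (-1.69, -0.14 and -0.39 against 0.62, 1.03 and 0.57). Summed levels of the mitochondrial ribosomal proteins did not overlap (527 to 571 against 576 to 774). Weighted alike, these proteins averaged -0.16, -0.17 and 0.03 in fat-1 against 0.11, 0.20 and -0.01, and the groups then overlapped. Of 8 monocyte markers 1 lay below 0 (median 0.27), of 6 neutrophil markers 1 (0.15), of 5 platelet markers 0 (0.50), of 8 red cell precursor markers 2 (1.08), of 7 markers of natural killer and cytotoxic cells 3 (0.15) and of 5 pan-leukocyte markers 2 (0.03). At an unadjusted p under 0.05 in limma, 1 T cell, 1 B cell, 2 natural killer or cytotoxic and 1 red cell precursor marker were also lower. At that p 1 natural killer or cytotoxic, 1 platelet and 1 red cell precursor marker were higher, and 6.15% of all probes were. No marker passed the adjusted threshold, with 0.144 as the smallest adjusted p in limma. The neutrophil receptors CXCR1 and CXCR2 were not well above background on any array, although S100A8 and S100A12, abundant neutrophil proteins, were. The part of cell composition in the differences of the ribosomal proteins was not tested.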

How the data were processed

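Total RNA from whole blood of 6 cattle was labelled with Cy3 and read on 1 Agilent array per animal, per the labels' protocols. The submitters' processing notes name Agilent Feature Extraction 10.7.1.1, and the processed spot intensity was deposited background-subtracted, with no scaling between arrays. Flags for spots well above background, saturated or outlying are deposited as a score of 0 or 1. The authors' value table holds log2 values with one distribution on every array (median 6.38, r to the array of the same label at least 0.999). How it was normalised is not stated in the sources used here. Raw mean and local background intensity, as deposited, served an alternative. The file of wild type replicate 2 was saved again at 3 significant digits.

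The 75th percentile of each array was subtracted from its log2 processed intensity. Spots flagged as outliers were left out, which lost 32 probes and no probe of a member, and probes well above background on 3 or more of 6 arrays were kept. Groups were compared in limma 3.58.1 (lmFit, then eBayes; R 4.3.3) by a script tested on simulated data, and p-values were adjusted by Benjamini-Hochberg over the 26822 probes kept. The number of arrays limits the precision, and animals are the replicates.

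The members and lists were chosen with earlier results of these data known. The genes named were any past the threshold, the 6 with the smallest unadjusted p in each direction, the 3 highest and 3 lowest differences, 12 members with known roles, the paralogue pairs and up to 4 genes of each pathway list; others are said to be named after their values were seen. Alternatives were other scalings, background correction, filters, an intensity trend, array weights, the replicate block, the mean of a gene's probes, centring on the members, leaving out each animal and, added after seeing the data, no scaling. Replicate numbers 1 to 3 are shared by both groups in the labels, but the deviations of same-numbered animals correlated at 0.12, 0.19 and 0.01, so they were not taken as pairs. Gene names are those of the files, and 77 of the 83 probes used had a RefSeq accession with the same symbol in the table of assembly ARS-UCD2.0. Positions are on Btau_3.1 per the file headers, and exons and untranslated regions were not assigned. Some genes and sequences that the rule names are not reported here.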

Additional observations from a re-analysis of the deposited data

How the results depend on the processing

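No member passed the adjusted threshold under any alternative run, with the smallest adjusted p at 0.0762 with array weights. The count of members at an unadjusted p under 0.05, 2 in all, was 0 with quantile scaling, the authors' value table, normexp, no filter, centring on the members' median and no scaling, 1 with median scaling, 4 with an intensity trend (4.94%, all lower, against 7.33% of all probes lower in that fit), 4 when a gene's probes were averaged (4.94% against 7.5%) and 12 with array weights (14.8% against 16.8%); with 1 animal left out it ran from 0 to 9, the 9 without wild type replicate 3. Over all probes the count past the threshold, 46, was 16 with quantile scaling and in the authors' table, 124 with median scaling, 117 with normexp, 14 with no filter, 125 with an intensity trend, 1986 with array weights and 27 with no scaling; with 1 animal left out it ran from 8 to 55. The median difference of the members was below 0 under every alternative, at -0.010 when centred on the members' median, which sets it near 0 by construction, and from -0.39 to -0.14 with 1 animal left out. With the replicate block, 105 probes passed and 1 member reached an unadjusted p under 0.05; animals numbered 1 and 2 correlated best with their own number, and those numbered 3 did not.

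Of 594 values of the 33 named members under alternatives, 547 kept their sign and their side of the threshold, and 47 changed sign. The cause was not tested. With quantile scaling these were RPLP1 at 0.048, RPL11 at 0.023, RPS6 at 0.080, RPL10 at 0.019, RPL7L1 at 0.022, RPL36AL at 0.068, RPS4X at 0.15, RPS4Y1 at 0.12 and RPS27L at 0.071. In the authors' table they were RPLP1 at 0.042, RPL11 at 0.014, RPS6 at 0.070, RPL10 at 0.015, RPL7L1 at 0.020, RPL36AL at 0.067, RPS4X at 0.15, RPS4Y1 at 0.11 and RPS27L at 0.068. Centred on the members' median they were RPSA at 0.036, RPLP1 at 0.070, RPL11 at 0.075, RPS6 at 0.13, RPS3 at 0.022, RPS19 at 0.050, RPL10 at 0.043, RPL7L1 at 0.14, RPL26L1 at 0.082, RPL36AL at 0.10, RPL39 at 0.011, RPS4X at 0.19, RPS4Y1 at 0.14 and RPS27L at 0.19. With no scaling they were RPS6 at 0.041, RPL7L1 at 0.050, RPL36AL at 0.0078, RPS4X at 0.10, RPS4Y1 at 0.055 and RPS27L at 0.10. RPL5 was -0.0066 with median scaling and -0.060 with array weights. With 1 animal left out RPL5 ran from -0.055 (without wild type replicate 2) to 0.11, RPLP1 from -0.34 to 0.0017, RPS6 from -0.25 to 0.028 and RPS4X from -0.16 to 0.048, the highest of these 3 without fat-1 replicate 3. With probes averaged, RPL6 was -0.012 and RPL36A, whose dim tag probe is then included, was 0.40. Having no scaling was an alternative chosen after seeing the data. RPL3L and RPL10L entered the test with no filter alone.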
